A study of Mus musculus with 6 samples.

Results

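The circadian clock genes Arntl, Clock, Per1, Per2, Per3, Cry1, Cry2, Nr1d1, Nr1d2 and Dbp were followed in jejunal intestinal epithelial cells (IEC). They were taken by gene symbol, and all 10 have a row among the 19616 genes of the deposited RNA-Seq table. IEC were enriched with EDTA, a chelator that loosens the epithelium, from 3 wild-type control mice (C1, C3 and C3-3) and 3 villin-Cre Hdac1-/-; Hdac2-/- mice (H1, H5 and H9) aged 3 months, and 1 library was made for each mouse. Villin-Cre is a transgene that expresses the Cre recombinase in the intestinal epithelium, so that floxed alleles of the histone deacetylase genes Hdac1 and Hdac2 are lost there and kept in other cells. The mice had a mixed C57BL/6J, 129SV and CD1 background. The hour at which mice were killed and their feeding are not given in the sources used here. Sex is not given either and is read from the counts below. Hour of death and genotype cannot be told apart for genes whose RNA follows the day.

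The mammalian clock is a loop of transcription and repression that runs in nearly every cell, the intestinal epithelium included, where its timing follows feeding. BMAL1, the product of Arntl, pairs with CLOCK and binds E-box sequences to turn on the Per and Cry genes, whose products then block that pair. The same pair turns on Nr1d1 and Nr1d2, which encode the receptors REV-ERBα and REV-ERBβ. These repress Arntl with the help of a corepressor that holds the deacetylase HDAC3. The pair also turns on Dbp, whose product binds D-box sequences of output genes, so that Arntl RNA and Dbp RNA peak at opposite times of day.

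Depth ranged from 36111035 to 65902344 counted reads per library. Expression is given as CPM, the count of a gene relative to the reads of its library after TMM scaling, a correction for a few abundant genes taking up reads. The lowest level considered measurable was 3 counts, or 0.0405 to 0.079 CPM depending on the library, with regard to counting error only. Hdac1 was 39.1, 34.5 and 48.9 CPM in C1, C3 and C3-3 and 3.97, 2.53 and 4.81 in H1, H5 and H9. Hdac2 was 32.9, 23.6 and 26.5 CPM in the controls and 26.6, 25.4 and 21.4 in the Hdac1/2-deleted mice, with overlapping groups, and gene counts do not separate the deleted exons from the rest of the transcript. The summed level of 5 epithelial markers was 11161 to 12900 CPM in control and 8472 to 10470 CPM in Hdac1/2-deleted mice. The 4 smooth muscle markers summed to 57.8, 45.5 and 2.18 CPM in C1, C3 and C3-3 and to 0.179 to 0.342 CPM in Hdac1/2-deleted mice, where Myh11 had at most 1 count. The 5 T lymphocyte markers summed to 38.1, 123 and 100.3 CPM in C1, C3 and C3-3 and to 21.8 to 43.9 CPM in Hdac1/2-deleted mice. C3 had 3082 counts on 4 Y-linked genes, and the 5 other libraries had 1 to 13. Xist, an RNA of the inactive X chromosome, had 13 counts in C3 and 2413 to 6883 in the 5 others. By these reads C3 was male and the 5 other mice, all Hdac1/2-deleted mice among them, were female. The part of these differences in the results below was not tested, apart from leaving out each mouse.

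Promoters are shown because the E-box and D-box letters by which the loop is wired can be read in some of the members. RefSeq promoters (GRCm38.p6) matched 9 of the 10 genes by symbol, with 13 start sites, and the 250 bases before each start were searched on both strands. The E-box CACGTG occurred for 2 of these 9 genes, Per1 and Cry1, and in 6.02% of all 32851 promoters. The D-box TTATGTAA occurred for Per3, which holds 2 copies, and in 0.819% of all promoters. Its variant TTACGTAA occurred for none of the 9 genes and in 0.113% of all promoters. The sequence AGGTCA, the core of sites read by REV-ERB and ROR receptors, was found for Clock, Per1 and Nr1d2 and in 14% of all promoters, with 4607 promoters holding it. Below, capitals mark CACGTG or TTATGTAA, read 5′ to 3′ on the strand of the gene. Nr1d1 is added as the member whose expression decreased.
Per1, chr11:69098699-69098948, plus strand: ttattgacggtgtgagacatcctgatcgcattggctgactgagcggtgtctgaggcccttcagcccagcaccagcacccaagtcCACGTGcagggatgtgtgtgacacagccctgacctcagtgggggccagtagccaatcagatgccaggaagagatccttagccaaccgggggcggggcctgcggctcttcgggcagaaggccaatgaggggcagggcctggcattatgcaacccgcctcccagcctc
Cry1, chr10:85185055-85185304, minus strand: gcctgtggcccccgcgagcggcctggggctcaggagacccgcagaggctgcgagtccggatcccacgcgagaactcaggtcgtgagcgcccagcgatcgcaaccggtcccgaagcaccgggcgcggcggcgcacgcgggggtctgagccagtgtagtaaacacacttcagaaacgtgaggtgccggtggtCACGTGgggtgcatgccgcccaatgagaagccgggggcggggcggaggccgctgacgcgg
Per3, chr4:151044666-151044915, minus strand: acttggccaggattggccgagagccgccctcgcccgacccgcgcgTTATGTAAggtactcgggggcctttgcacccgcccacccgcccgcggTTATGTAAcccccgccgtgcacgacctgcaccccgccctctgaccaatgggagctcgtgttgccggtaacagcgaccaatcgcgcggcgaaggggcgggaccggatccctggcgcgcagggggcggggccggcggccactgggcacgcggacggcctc
Nr1d1, chr11:98775378-98775627, minus strand: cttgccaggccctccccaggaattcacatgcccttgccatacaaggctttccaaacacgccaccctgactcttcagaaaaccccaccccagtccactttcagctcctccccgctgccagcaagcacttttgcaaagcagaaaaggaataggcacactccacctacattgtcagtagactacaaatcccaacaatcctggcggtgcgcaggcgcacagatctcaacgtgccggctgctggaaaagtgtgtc
The E-box of Per1 began 166 bases and that of Cry1 60 bases before the start. The D-boxes of Per3 began 205 and 158 bases before it. A match is a run of letters and not a measured binding site. Sites outside these windows or with other letters were not searched. The shares of all promoters are per start site, while a gene with several starts had more sequence searched.

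**Figure D1:**
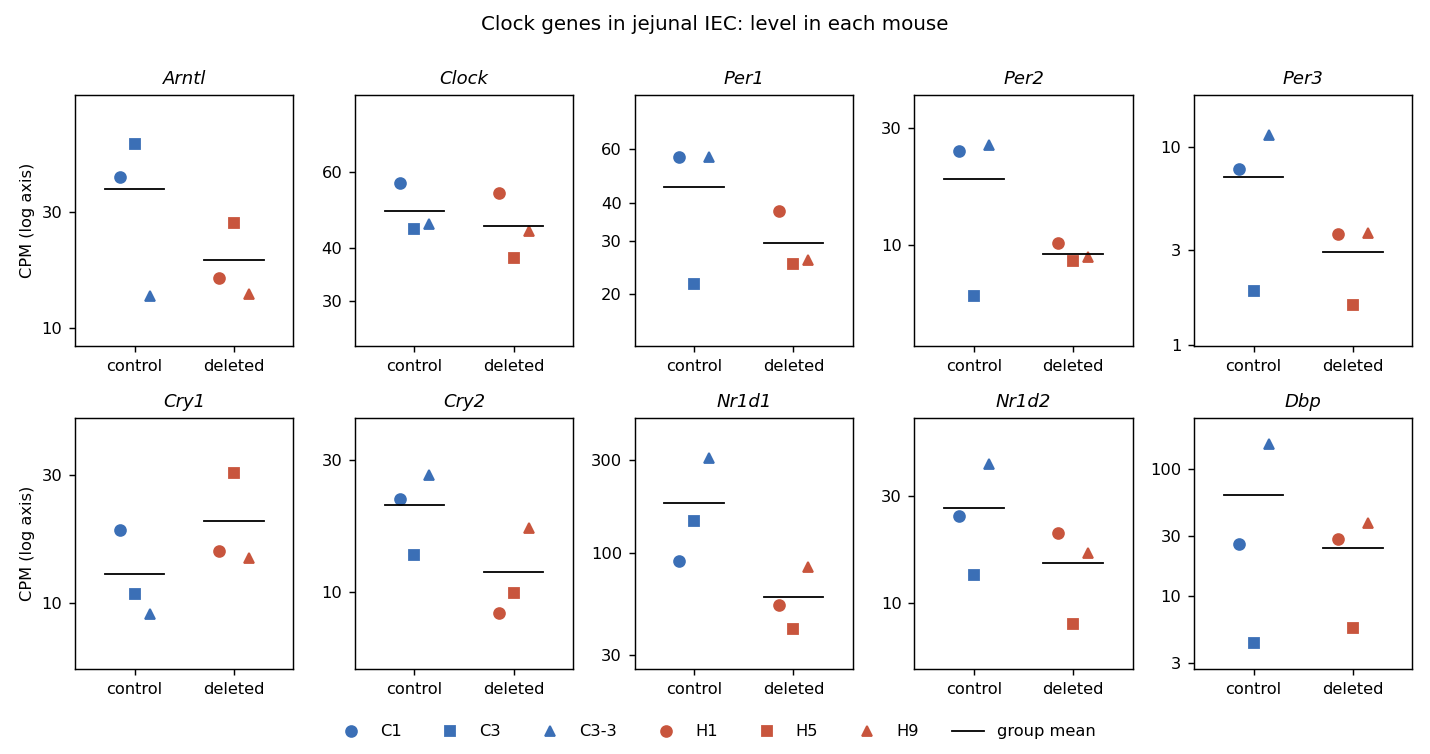
Expression of the 10 clock genes in each mouse, in CPM on a log axis that differs between panels, with control mice in blue and Hdac1/2-deleted mice in red. Each symbol is 1 mouse and each line a group mean. The groups overlap in 9 panels and not in that of Nr1d1, and Dbp runs from 4.30 to 156 CPM among controls.

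To determine whether clock gene expression differed between control and Hdac1/2-deleted IEC, counts were fitted with edgeR's quasi-likelihood model over all 15618 genes that passed its filter on low counts, the 10 members among them. Calls required an adjusted p no higher than 0.05 and at least a 2-fold difference. Nr1d1 was decreased in Hdac1/2-deleted IEC, and no other member was called. Thus 1 of 10 members was decreased, where 12.7% of all tested genes were, and 0 of 10 were increased, where 12.4% of all tested genes were. These shares are near the background. With no fold limit, again 1 of 10 was lower and 0 of 10 were higher, against 20.3% and 20.5% of all tested genes. At an unadjusted p under 0.05 there were 2 of 10 members, Nr1d1 and Cry2, and 7745 of the 15618 tested genes, so the members fell below the background at this limit. The log2 fold change was below 0 for 9 members, with a median of -0.90 over the 10, beside a median of -0.01 over all tested genes, of which 7875 were below 0. Of the members below 0, Clock and Dbp changed sign under some alternatives, with Clock at 0.07 under scaling by library totals without TMM, which put the median of all genes at 0.18. The groups did not overlap for 1 of 10 members, Nr1d1, which was lower in all 3 Hdac1/2-deleted mice. Among all tested genes 26.6% were lower and 26.7% higher in this sense. With 3 mice in each group, 0.1 is the smallest p that an exact permutation test can reach, so none is given for single genes. The labels name mice as the samples. P-values weigh the group difference against the spread between mice, which edgeR estimates with help from all tested genes.

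Nr1d1, on chromosome 11 from 98767932 to 98775333 (GRCm38, GENCODE M21), encodes REV-ERBα, a heme-binding receptor that represses Arntl. Its level was 91.4, 145 and 308 CPM in C1, C3 and C3-3 and 54.4, 40.5 and 84.4 CPM in H1, H5 and H9. The highest Hdac1/2-deleted mouse was close to the lowest control, and C3-3 stood well above the other controls. The log2 fold change was -1.60 (standard error 0.49, 95% interval -2.78 to -0.43, edgeR adjusted p = 0.039). In bulk RNA, fewer cells that express a gene and less RNA per cell cannot be told apart. With edgeR the call was lost without C3 (-1.74, adjusted p = 0.077), C3-3 (-0.98, 0.051), H1 (-1.54, 0.12) or H5 (-1.38, 0.11), with adjusted p given after each log2 fold change. Scaling by library totals and leaving out the filter on low counts also lost it. Exons of Nr1d1 share 263 bases with exons of Thra on the opposite strand. Thra, the thyroid hormone receptor α gene, was 115 to 151 CPM in control and 122 to 171 CPM in Hdac1/2-deleted mice, and how strand was treated in counting is not given. Nr1d2, on chromosome 14 from 18204054 to 18239127, encodes the related receptor REV-ERBβ. It was 24.4, 13.3 and 42.0 CPM in the controls C1, C3 and C3-3 and 20.5, 8.06 and 16.8 CPM in H1, H5 and H9. The groups overlapped, with C3 below H1 and H9. Its log2 fold change of -0.81 had a 95% interval from -1.96 to 0.34 (edgeR adjusted p = 0.23).

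Arntl and Clock encode the activating pair. Arntl lies on chromosome 7 from 113207465 to 113314126. It was 42.0, 57.2 and 13.5 CPM in C1, C3 and C3-3 and 16.1, 27.1 and 13.8 CPM in H1, H5 and H9. C3-3, the control with the most Nr1d1, had the least Arntl of all 6 mice. The log2 fold change was -0.99 (standard error 0.53, 95% interval -2.26 to 0.29, edgeR adjusted p = 0.19). Without C3-3 it was -1.38 and was called (edgeR adjusted p = 0.0096). The controls with high Arntl were those with 57.8 and 45.5 CPM of smooth muscle markers, and the part of this was not tested. Clock, on chromosome 5 from 76209868 to 76304792, varied least. It was 56.7, 44.3 and 45.3 CPM in the controls C1, C3 and C3-3 and 53.5, 37.8 and 43.8 CPM in H1, H5 and H9. The log2 fold change was -0.11, with a 95% interval from -0.50 to 0.27 that leaves out a 2-fold difference in either direction (edgeR adjusted p = 0.63). Npas2, a relative of Clock that can pair with BMAL1, was 56.3, 74.0 and 27.6 CPM in the controls C1, C3 and C3-3, the same order as Arntl, and 20.9 to 36.5 CPM in Hdac1/2-deleted mice (log2 fold change -0.84, edgeR adjusted p = 0.11). It was called without C3-3 (-1.14, edgeR adjusted p = 0.009).

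Per1, Per2 and Per3 encode the period proteins of the repressing arm. Per1, on chromosome 11 from 69095217 to 69109960, was 56.6, 21.6 and 56.7 CPM in C1, C3 and C3-3 and 37.6, 25.1 and 25.9 CPM in H1, H5 and H9. Per2, on chromosome 1 from 91415982 to 91459324, was 24.1, 6.23 and 25.6 CPM in the controls and 10.2, 8.61 and 8.94 CPM in the Hdac1/2-deleted mice, in the same order. Per3, on chromosome 4 from 151003652 to 151044665, was 7.76, 1.87 and 11.4 CPM in the controls and 3.62, 1.58 and 3.67 CPM in the Hdac1/2-deleted mice. For all 3 genes C1 and C3-3 lay above every Hdac1/2-deleted mouse, while C3 lay within their range or below it. The log2 fold changes were -0.61 for Per1 (95% interval -1.48 to 0.27, edgeR adjusted p = 0.23), -1.01 for Per2 (-2.14 to 0.12, adjusted p = 0.13) and -1.24 for Per3 (-2.73 to 0.25, adjusted p = 0.16). Without C3, the mouse read as male, Per2 (-1.42, edgeR adjusted p = 7.5e-04) and Per3 (-1.68, adjusted p = 0.0099) were called, and Per1 was -0.93 (adjusted p = 0.0075), under the 2-fold limit.

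Cry1 and Cry2 encode the cryptochromes, which bind the activating pair and silence it. Cry1, on chromosome 10 from 85131700 to 85185064, was 18.6, 10.8 and 9.13 CPM in C1, C3 and C3-3 and 15.6, 30.4 and 14.8 CPM in H1, H5 and H9. C1 lay inside the range of the Hdac1/2-deleted mice, and H5 stood above all others. It was the member with a log2 fold change above 0, at 0.65 (standard error 0.36, 95% interval -0.17 to 1.48, edgeR adjusted p = 0.18), and it was called without C1 (1.03, adjusted p = 0.044). Cry2, on chromosome 2 from 92403646 to 92434043, was 21.7, 13.7 and 26.6 CPM in the controls and 8.45, 9.98 and 17.1 CPM in the Hdac1/2-deleted mice. Only H9 reached the control range. The log2 fold change was -0.80 (standard error 0.32, 95% interval -1.54 to -0.07, edgeR adjusted p = 0.078). It was called without C3 (-1.02, edgeR adjusted p = 0.028) and without H9 (-1.16, adjusted p = 0.018).

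Dbp, on chromosome 7 from 45705088 to 45710203, encodes an activator of the PAR-bZIP family, and its RNA is among the most strongly rhythmic in mouse tissues. Its level was 25.6, 4.30 and 156 CPM in C1, C3 and C3-3 and 28.3, 5.69 and 37.4 CPM in H1, H5 and H9. The highest control was 36.3 times the lowest, from 8302 and 239 counts, so counting error is small beside this range. The Hdac1/2-deleted mice differed 6.58-fold among themselves. The log2 fold change of -1.38 had a standard error of 1.40 and a 95% interval from -4.97 to 2.21 (edgeR adjusted p = 0.48), which leaves a large difference in either direction possible. It was 0.67 without C3-3. Exons of Dbp share 539 bases with Sphk2 on the other strand, and Sphk2 varied less, from 152 to 185 CPM in control and from 91.8 to 110.1 CPM in Hdac1/2-deleted mice.

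**Figure D2:**
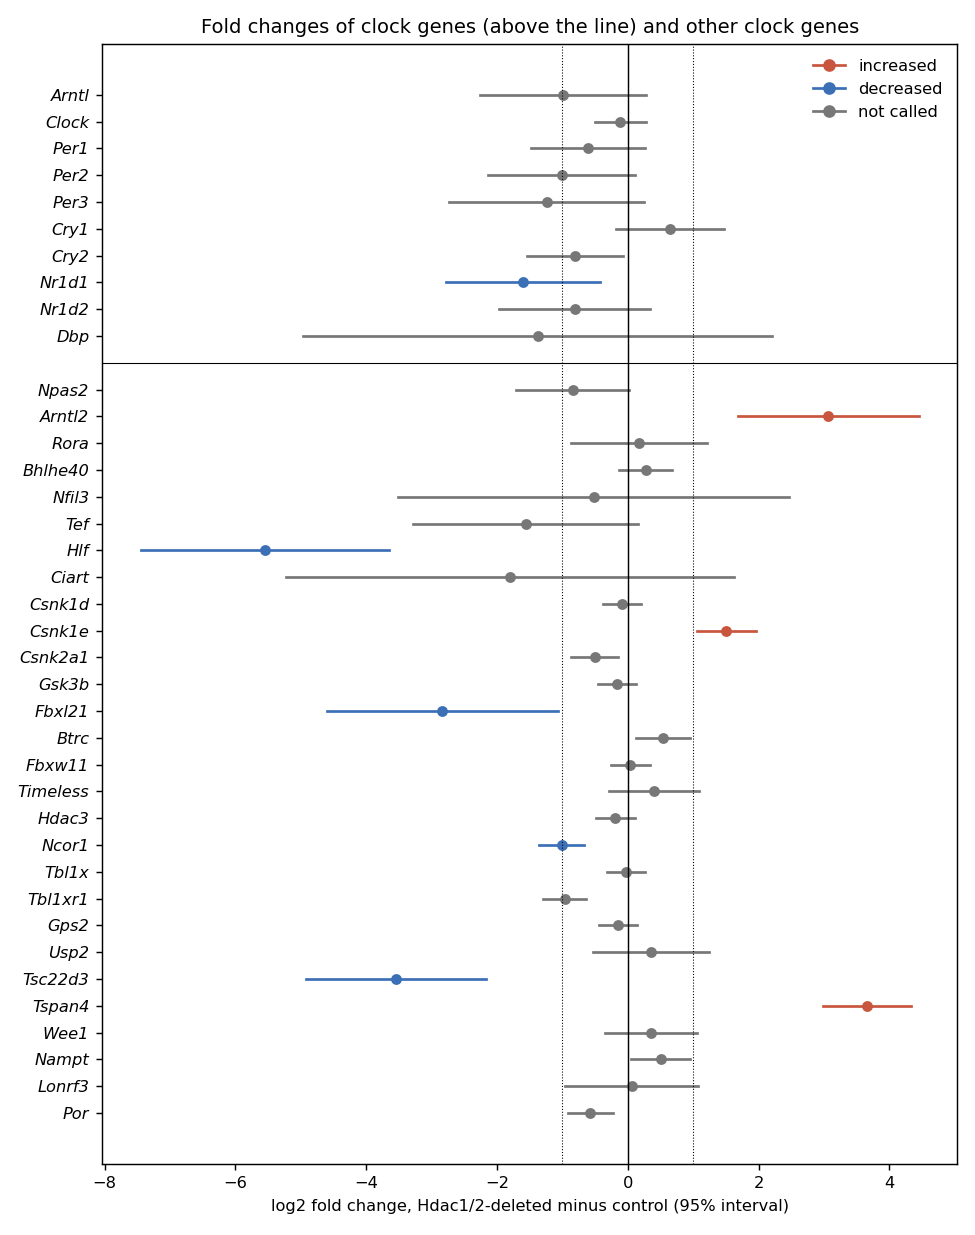
Log2 fold changes of the 10 clock genes, above the line, and of 28 other clock genes, below it. Points are edgeR estimates, bars 95% intervals and dotted lines the 2-fold limits, with called genes in colour. The interval of Nr1d1 ends at -0.43, and that of Dbp spans -4.97 to 2.21.

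Many of the members ranked the mice of a group in a like order. How many of all tested genes rank them in that order was not counted. Among controls, C3-3 was highest for 7 of the 10 members (Per1, Per2, Per3, Cry2, Nr1d1, Nr1d2 and Dbp) and lowest for Arntl and Cry1, while C3 was lowest for 7 (Clock, Per1, Per2, Per3, Cry2, Nr1d2 and Dbp) and highest for Arntl. Among Hdac1/2-deleted mice, H5 was lowest for 7 (Clock, Per1, Per2, Per3, Nr1d1, Nr1d2 and Dbp) and highest for Arntl and Cry1. To give this in 1 value per mouse, the mean log2 CPM of Arntl, Clock and Cry1 was subtracted from that of Per1, Per2, Per3, Nr1d1, Nr1d2 and Dbp. The grouping is a choice by the usual timing of the RNAs and not by role, with Cry1, whose RNA is known to peak later than that of the Per genes, set beside Arntl and Clock, and with Cry2 in neither set. The difference was -0.28 in C1, -1.41 in C3 and 1.68 in C3-3. It was -0.34 in H1, -1.76 in H5 and -0.14 in H9. The controls thus spanned the values of H1 and H9, and H5 lay lower than C3. The mean log2 CPM of Per1, Per2, Per3, Nr1d1, Nr1d2 and Dbp alone was 4.86, 3.50 and 5.83 in C1, C3 and C3-3 and 4.23, 3.21 and 4.24 in H1, H5 and H9. H1 and H9 lay below C1 and C3-3 and above C3. These values are a description of 6 mice, and no test was made on them.

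**Figure D3:**
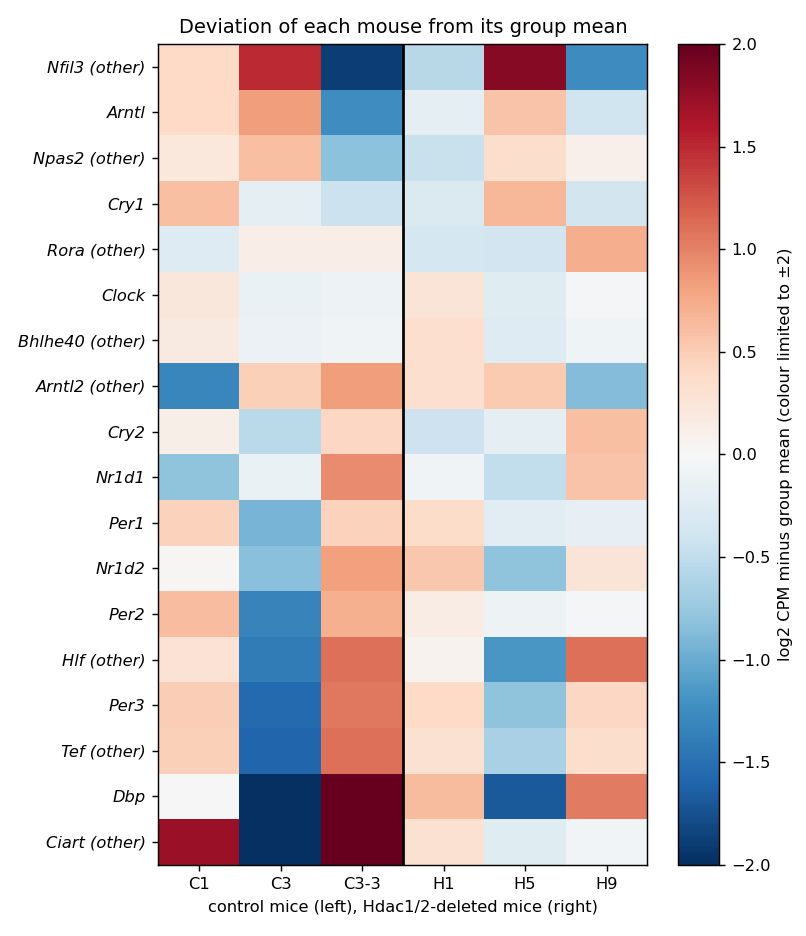
Deviation of each mouse from the mean of its own group, in log2 CPM, for the 10 clock genes and 8 other clock transcription factors (marked other), ordered by the difference between C3-3 and C3. Red is above and blue below the group mean. Nfil3 and Arntl are high and Dbp is low in C3 and in H5, and C3-3 shows the reverse. Ciart had 0 counts in C3.

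The spread between mice was wide for these genes. The SD of log2 CPM within groups, pooled over control and Hdac1/2-deleted mice, had a median of 0.75 over the members and of 0.30 over all tested genes. It lay above that median for 9 of the 10 members, and the exception was Clock at 0.23. The values were 2.11 for Dbp, 1.09 for Per3, 0.86 for Arntl, 0.82 for Per2, 0.77 for Nr1d2, 0.73 for Nr1d1, 0.61 for Per1, 0.56 for Cry1 and 0.51 for Cry2. Dbp was wider than or equal to 98.6% of all tested genes, Per3 than 94.4% and Arntl than 90.8%. Among the 8325 tested genes whose mean log2 CPM reached 3, where counting error is small, the median was 0.21. Y-linked counts and smooth muscle and T lymphocyte markers also differed between control mice, as given above, and their part in the spread was not tested.

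**Figure D4:**
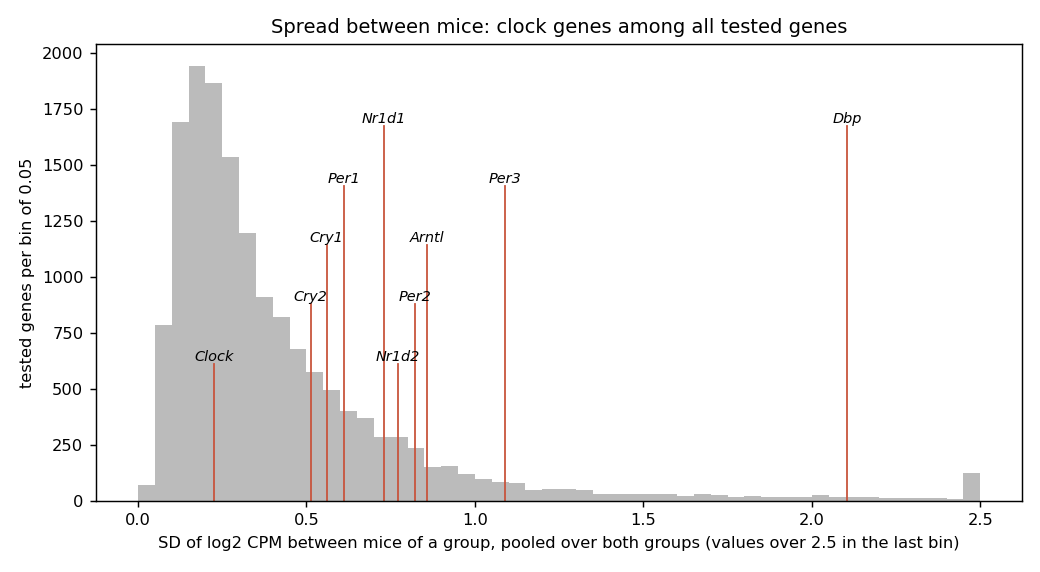
Distribution of the SD of log2 CPM between mice of a group over all tested genes (grey), with the 10 clock genes as red lines. The horizontal axis is in log2 units and the vertical axis counts genes. Clock lies at 0.23, inside the bulk, and Dbp at 2.11, in the tail.

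Compared per kilobase of exon, as RPKM, Nr1d1 had the highest mean of the 10 genes in control IEC, 59.1 ± 36.7 (SD, n = 3), and Per3 the lowest, 0.730 ± 0.501. Between them came Dbp (20.7 ± 27.5), Per1 (7.98 ± 3.59), Arntl (4.99 ± 2.95), Nr1d2 (4.91 ± 2.68), Cry1 (3.85 ± 1.52), Clock (3.55 ± 0.504), Cry2 (3.27 ± 1.03) and Per2 (3.19 ± 1.84). The ranges of all neighbours in this order overlapped. In Hdac1/2-deleted IEC Nr1d1 was again highest, at 19.4 ± 7.29 RPKM, followed by Dbp (7.95 ± 5.46), Cry1 (6.06 ± 2.63), Per1 (5.24 ± 1.24), Clock (3.28 ± 0.578), Nr1d2 (2.79 ± 1.18), Arntl (2.52 ± 0.945), Cry2 (1.87 ± 0.732) and Per2 (1.58 ± 0.146). There the lowest value of Nr1d1, 13.2 RPKM, exceeded the highest of Dbp, 12.5, and the ranges of Per1 and Clock did not meet, while the other neighbours from Dbp to Per2 overlapped. Per3 was lowest at 0.308 ± 0.124 RPKM, and its range did not reach that of Per2.

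The relatives of Dbp lie beside it in the clock's output. Hlf, the third PAR-bZIP gene, was decreased, with a larger fold change than any member. It had 703, 183 and 988 counts in C1, C3 and C3-3 and 14, 3 and 24 counts in H1, H5 and H9. All 3 Hdac1/2-deleted mice lay well below the lowest control, and H5 was at the lowest measurable level. Its level of 10.8 ± 7.65 CPM in control and 0.219 ± 0.158 CPM in Hdac1/2-deleted IEC (SD, n = 3) gave an edgeR log2 fold change of -5.55 (standard error 0.80, edgeR adjusted p = 0.0016). It stayed decreased in the 13 alternatives in which it was tested, from -6.20 to -4.92. Tef, the remaining PAR-bZIP gene, was 73.2, 17.4 and 112 CPM in the controls C1, C3 and C3-3 and 26.9, 14.0 and 27.8 CPM in H1, H5 and H9, an order like that of Per3. Its log2 fold change was -1.56 (95% interval -3.28 to 0.15, edgeR adjusted p = 0.13), and it was called without C3 (-2.01, adjusted p = 0.0032). Nfil3, a repressor that competes for the same D-box sites, ran the other way from Dbp, with 24.0, 51.0 and 4.95 CPM in the controls and 8.25, 42.8 and 5.10 CPM in the Hdac1/2-deleted mice (log2 fold change -0.52, edgeR adjusted p = 0.76).

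In all, 31 other clock genes were tested. Of these, 3 were increased and 5 decreased, numbers near those that the background shares of 12.4% and 12.7% of all tested genes give. The median over the 31 log2 fold changes was -0.15. Of the 9 tested transcription factors of this kind, Arntl2, a relative of Arntl, was increased and Hlf decreased. Arntl2 was rare, with 3, 9 and 11 counts in the controls C1, C3 and C3-3 and 100, 58 and 36 counts in H1, H5 and H9. Its log2 fold change was 3.06 (standard error 0.61, edgeR adjusted p = 0.0039).

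Of 9 genes for kinases and ubiquitin ligases that act on clock proteins, 1 was increased and 2 were decreased, Fbxl21 among them, beside 12.4% and 12.7% of all tested genes. Csnk1e, a casein kinase that marks PER proteins for degradation, was 9.13, 6.63 and 6.89 CPM in C1, C3 and C3-3 and 22.8, 23.6 and 18.1 CPM in H1, H5 and H9. The groups were far apart and the log2 fold change was 1.51 (standard error 0.20, edgeR adjusted p = 4.7e-04). Its relative Csnk1d had a log2 fold change of -0.09 (95% interval -0.38 to 0.20, edgeR adjusted p = 0.61), and of 0.09 when counts were scaled by library totals. Fbxl21, a ubiquitin ligase subunit gene, fell from 2.10 ± 1.87 to 0.290 ± 0.214 CPM (SD, n = 3), a log2 fold change of -2.83 (edgeR adjusted p = 0.019), which was not called without C3 (-1.81, adjusted p = 0.051), H1 (-2.49, 0.07) or H5 (-2.62, 0.076).

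The corepressor through which REV-ERB acts holds NCoR1 with HDAC3, a deacetylase that was not targeted in these mice. Hdac3 was 57.5 to 69.0 CPM in control and 51.8 to 58.6 CPM in Hdac1/2-deleted mice (log2 fold change -0.19, 95% interval -0.49 to 0.11, edgeR adjusted p = 0.28), and 0.0051 under scaling by library totals. Ncor1 was decreased, from 350, 378 and 288 CPM in C1, C3 and C3-3 to 156, 179 and 168 CPM in H1, H5 and H9. Its log2 fold change of -1.01 (standard error 0.15, edgeR adjusted p = 9.5e-04) lay at the 2-fold limit, and 7 of 14 alternatives put it at a smaller change while its adjusted p stayed at most 0.0058. Tbl1xr1, another subunit, went from 40.0 to 51.9 CPM in control to 22.6 to 24.7 CPM in Hdac1/2-deleted mice (log2 fold change -0.96, edgeR adjusted p = 9.5e-04), and was called without C3-3 (-1.04).

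**Figure D5:**
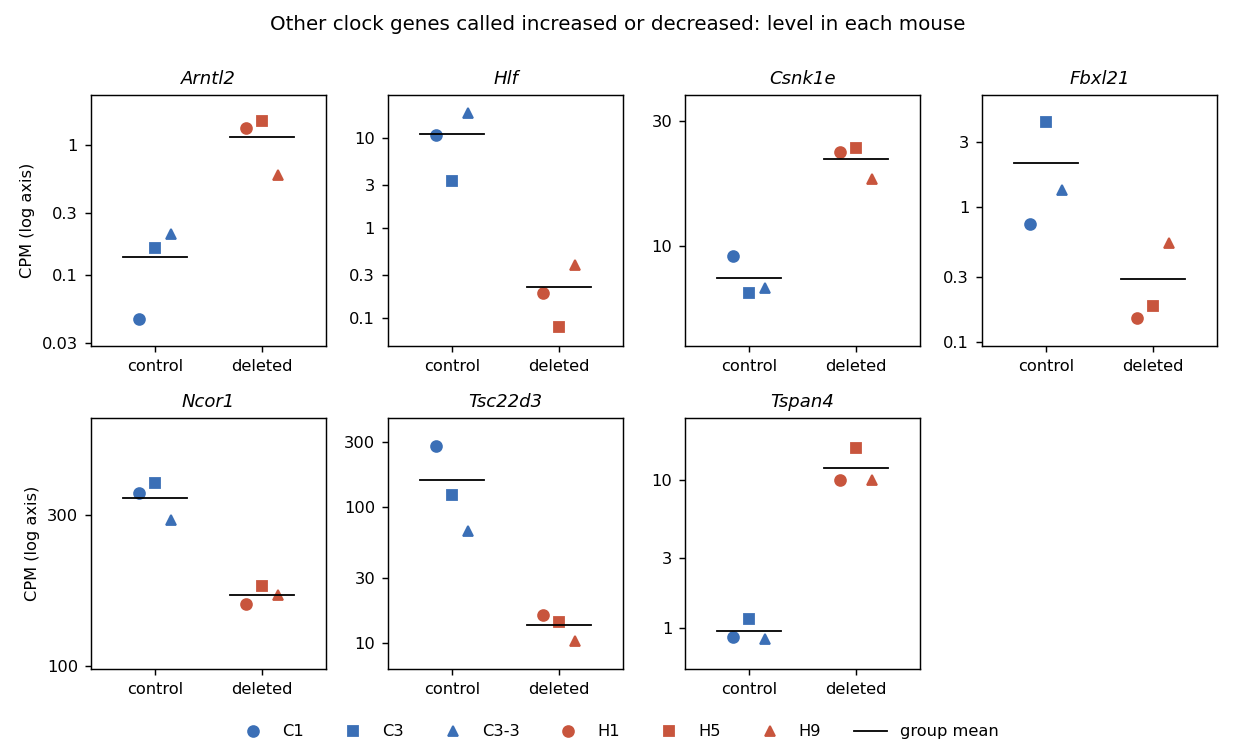
Expression of 7 other clock genes called increased or decreased, in CPM on a log axis that differs between panels, with control mice in blue and Hdac1/2-deleted mice in red. Each symbol is 1 mouse and each line a group mean. In no panel do the groups overlap, which showing called genes only favours, and the gap is widest for Hlf and Tspan4. Among all tested genes 26.6% were lower and 26.7% higher without overlap.

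Of 7 output genes whose RNA is rhythmic in many tissues, 1 was increased and 1 decreased, beside 12.4% and 12.7% of all tested genes. Tspan4, a tetraspanin gene, rose from 0.958 ± 0.169 to 12.2 ± 3.68 CPM (SD, n = 3), a log2 fold change of 3.66 (edgeR adjusted p = 4e-05). Tsc22d3, which glucocorticoids induce as well as the clock, was 281, 122 and 66.2 CPM in C1, C3 and C3-3 and 16.0, 14.2 and 10.2 CPM in H1, H5 and H9 (log2 fold change -3.54, standard error 0.57, edgeR adjusted p = 0.0035). Sgk1, another glucocorticoid-induced gene, had the same order among the controls, at 981, 317 and 237 CPM. No other listed gene of this kind had that order, and what sets it was not tested. Sgk1 was 26.9 to 35.2 CPM in Hdac1/2-deleted mice (log2 fold change -4.05, edgeR adjusted p = 0.0022). Of 6 genes of that kind 3 were decreased and 0 increased, beside 12.7% and 12.4% of all tested genes. Zbtb16, the remaining decreased gene, was 11.4, 0.324 and 3.44 CPM in C1, C3 and C3-3 and 0.121 to 0.276 CPM in H1, H5 and H9. The list did not move as 1 group. Klf9 was 11.6 to 17.2 CPM in control and 23.6 to 32.5 CPM in Hdac1/2-deleted mice, with a log2 fold change of 0.96 under the 2-fold limit (edgeR adjusted p = 0.0044). Fkbp5 was 198, 9.16 and 104 CPM in C1, C3 and C3-3 and 85.0 to 127 CPM in Hdac1/2-deleted mice (log2 fold change 0.03, edgeR adjusted p = 0.98). Per1, which is known to answer glucocorticoids too, was lowest among controls in C3, as Zbtb16 and Fkbp5 were, while Sgk1 and Tsc22d3 were lowest in C3-3. The part of these genes' differences in the levels of Per1 was not tested.

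Genes with a like pattern were sought among 8316 well expressed genes (mean log2 CPM of 3 or above), by the root mean square difference of their log2 CPM from that of a member over the 6 mice, each centred on its mean. For Arntl the nearest were St5 (0.18), Bcl6 (0.23) and Itpr1 (0.25), with the difference in log2 units in parentheses. St5 was 61.8, 78.3 and 26.0 CPM in C1, C3 and C3-3 and 25.6, 51.0 and 21.7 CPM in H1, H5 and H9, so that it too was lowest among controls in C3-3 and highest among Hdac1/2-deleted mice in H5. For Nr1d1 the nearest were 0610005C13Rik (0.30), Slc7a15 (0.32) and Cndp1 (0.34). For Dbp the nearest were Btnl5-ps (0.962), Tef (0.999) and Slc20a1 (1.07). Differences were not scaled by spread, so a gene that varies as widely as Dbp lies farther from others whatever its pattern. The measure takes in the difference between groups as well as the order of mice within them, and likeness over 6 mice is a description.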

How the data were processed

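RNA of EDTA-enriched jejunal IEC from 3 control and 3 Hdac1/2-deleted mice was sequenced. The authors aligned the reads with STAR and deposited raw counts of reads per gene without normalization. The paper's methods name GRCm38 and the submitters' processing notes name mm9 and STAR 2.4.0f1, and the counting program, annotation and strand setting are not given in the sources used here. No deposited gene has fewer than 10 counts in all. The 6 columns of scaled counts and the authors' fold changes and p-values were not used.

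Counts were filtered (filterByExpr), scaled (TMM) and fitted with edgeR 4.0.16 in R 4.3.3 by the robust quasi-likelihood test without covariates (prior count 0.125). P-values were adjusted by Benjamini-Hochberg over the 15618 genes tested. Standard errors are the log2 fold change over the square root of F. Alternatives used DESeq2 1.42.0, limma 3.58.1, other scalings, filters and limits, and left out each mouse. The fit was tested on simulated data. Positions and exon lengths are from GENCODE M21. Plots used matplotlib 3.10.9. Of 33 other clock genes listed, Rorb was not analysed here and Bhlhe41 was too low to test.

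The members and lists were chosen with earlier results of these data known. All members are named, of the other clock lists every called gene, transcription factors where they bear on a member, and the 3 genes of most like pattern for Arntl, Nr1d1 and Dbp. Outside this rule, Csnk1d, Hdac3, Tbl1xr1, Sgk1, Zbtb16, Klf9, Fkbp5, Egr1, Nr4a1 and Jun, and genes whose sign depended on the setting, were named after their values were seen. The labels name mice and give no batch. Some genes that enter the counts are not reported here.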

Additional observations from a re-analysis of the deposited data

How the results depend on the processing

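Of the 14 alternatives fitted for each member, Nr1d2 and Per1 kept their direction and stayed uncalled in all. The call of Nr1d1 was lost when counts were scaled by library totals (log2 fold change -1.40) and with no filter on low counts (-1.59, edgeR adjusted p = 0.058). With 1 mouse left out it ranged from -1.93 to -0.98. DESeq2 called 2 members decreased, Nr1d1 and Per3 (-1.23, DESeq2 adjusted p = 0.049). The number of members decreased was 0 with library totals, with no filter and with adjusted p limited to 0.01, and 0 to 3 with 1 mouse left out, when 0 to 1 were increased. Of all tested genes, 1538 were decreased with library totals. For the other settings no share of all tested genes stands beside these counts, and they show only how calls moved. With 1 mouse left out the log2 fold change ranged from -1.38 to -0.54 for Arntl, from -0.25 to 0.0157 for Clock, from -1.42 to -0.71 for Per2, from -1.68 to -0.69 for Per3, from 0.24 to 1.03 for Cry1, from -1.16 to -0.57 for Cry2 and from -1.93 to 0.67 for Dbp. Clock was 0.0738 with library totals.

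Of the other clock genes, 3 were decreased with library totals and with adjusted p limited to 0.01, 2 with at least 10 counts in every sample, 9 with no fold limit, and 3 to 8 with 1 mouse left out. With no fold limit 5 of them were increased, as were 3198 of all genes, with 3168 decreased. Apart from library totals and no fold limit, no share of all genes stands beside these counts either. With library totals the sign turned for Csnk1d (0.0937), Gsk3b (0.0198), Hdac3 (0.0051), Tbl1x (0.16) and Gps2 (0.033), and with limma-voom for Ciart (0.66). Leaving out 1 mouse turned the sign of Tbl1x (-0.0613 to 0.03), Nfil3 (-1.99 to 0.37), Ciart (-2.39, called without C3, to 0.58), Fbxw11 (-0.0221 to 0.11), Lonrf3 (-0.20 to 0.72) and Rora (-0.29 to 0.36). The cause was not tested. The difference between both sets of clock genes is taken within each mouse, so a scaling of the library nearly cancels in it. Other scalings could therefore not test it. No paired analysis was possible because the names of control and Hdac1/2-deleted mice share fewer than 2 numbers.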

Other observations

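Immediate-early genes, which are switched on within minutes of a stimulus and respond to handling of tissue, were looked at beside the clock genes. Of the 8 listed, 2 were increased and 1 was decreased in Hdac1/2-deleted IEC, where 12.4% and 12.7% of all tested genes were. Egr1, a zinc finger transcription factor gene, was 9.30, 9.15 and 9.20 CPM in C1, C3 and C3-3 and 19.1, 30.4 and 33.0 CPM in H1, H5 and H9 (log2 fold change 1.58, edgeR adjusted p = 5.7e-04). Nr4a1, an orphan nuclear receptor gene, was rarer, with 40 to 52 counts in control and 98 to 181 counts in Hdac1/2-deleted mice (log2 fold change 1.53, edgeR adjusted p = 0.0046). Jun, a subunit of the AP-1 transcription factor, was 85.1, 153 and 67.4 CPM in the controls and 33.1 to 35.9 CPM in the Hdac1/2-deleted mice (log2 fold change -1.55, edgeR adjusted p = 0.003). The summed level of the 8 genes was 347 to 548 CPM in control and 349 to 396 CPM in Hdac1/2-deleted mice, so the groups overlapped, and C3 was highest. Among controls Jun was highest in C3 and lowest in C3-3, as Arntl was. The sum of the 6 glucocorticoid-induced genes was 433 to 1495 CPM in control and 154 to 215 CPM in Hdac1/2-deleted mice. In the controls most of this sum was Sgk1 and Tsc22d3, and Klf9 and Fkbp5 were not decreased, as given above.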
